A study of Rattus norvegicus with 23 samples.

Results

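The genes described here encode the proteins of the sarcomere, the contractile unit of striated muscle, in their fast-fibre and slow-fibre isoforms, together with proteins of the Z-disc and the M-band. They were taken by symbol from a list of 32 genes that holds no myosin heavy chain. Of these, 31 were in the table of 18903 named genes, each as 1 entry, and all 31 passed the filter on low counts, as did 13365 genes in all. The symbol Ttn (titin) was not matched in the table, so titin was not analysed here. RNA of the gastrocnemius, a calf muscle, was sequenced from 23 Wistar rats, with 1 library per rat. The groups were 6 Male HFHS, 6 Male Chow, 6 Female HFHS and 5 Female Chow rats. HFHS stands for a diet high in fat and sucrose, and chow for the standard diet. Every rat was on its diet for 14 weeks from 4 weeks of age and was kept at thermoneutral temperature. The ovaries of female rats were removed when they were 12 weeks old and estradiol was then given in the water, except for some with a sham operation. Which female had which operation is not in the labels, so sex, ovariectomy and estradiol cannot be told apart in what follows.

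Muscle shortens when myosin heads of the thick filament pull on actin of the thin filament. Calcium opens the way by binding to troponin C, which acts through troponin I and troponin T so that tropomyosin moves off the sites on actin where myosin binds. Most of these proteins come in a fast and a slow version, made from separate genes in fibres with fast or slow myosin heavy chains. Several of the slow versions are shared with the heart. Z-discs, built on alpha-actinin, anchor the thin filaments, and M-bands, built on myomesins, hold the thick filaments in register. The rat gastrocnemius is mostly fast, with its slow fibres gathered in deep regions, and a small piece of the muscle was taken here. The place of that piece within the muscle is not in the labels.

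Promoter sequences of 6 genes are shown, since the 3 slow genes among them (Tnni1, Myl3 and Myoz2) varied together between rats, Mybpc2 and Tnnc2 are fast isoforms, and Mybpc1 and Tnnc2 differed by sex. Each is the stretch of 250 bases before the gene's start in RefSeq on the GRCr8 build, written 5′ to 3′ on the gene's strand, and the counts themselves were made on the older build rn6. Capitals mark motifs of muscle promoters found by a search of both strands. These were the E-box CANNTG bound by myogenic factors, the MCAT element CATTCC bound by TEAD factors, which reads GGAATG on the other strand, the TATA box with the letters TATAAA, which reads TTTATA on the other strand, the MEF2 site and the CArG box of serum response factor. No marked motif overlaps another in these sequences.
Tnni1, chr13:49781279-49781528, plus strand: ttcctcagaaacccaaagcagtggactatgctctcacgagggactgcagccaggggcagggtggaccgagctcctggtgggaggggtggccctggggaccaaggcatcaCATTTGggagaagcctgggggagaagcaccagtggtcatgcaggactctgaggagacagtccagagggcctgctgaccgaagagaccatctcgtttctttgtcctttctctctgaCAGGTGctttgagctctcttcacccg
Myl3, chr8:119616844-119617093, plus strand: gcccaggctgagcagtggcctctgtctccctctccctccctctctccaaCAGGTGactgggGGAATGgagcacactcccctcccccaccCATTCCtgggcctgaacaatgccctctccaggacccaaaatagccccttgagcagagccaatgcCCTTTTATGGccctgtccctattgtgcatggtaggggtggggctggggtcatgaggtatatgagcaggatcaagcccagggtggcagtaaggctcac
Myoz2, chr2:213852779-213853028, minus strand: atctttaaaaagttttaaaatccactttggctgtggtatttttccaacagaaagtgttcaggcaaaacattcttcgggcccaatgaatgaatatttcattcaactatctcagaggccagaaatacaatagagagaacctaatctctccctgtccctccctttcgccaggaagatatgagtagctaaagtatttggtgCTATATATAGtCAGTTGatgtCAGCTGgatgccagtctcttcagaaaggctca
Mybpc2, chr1:104154102-104154351, minus strand: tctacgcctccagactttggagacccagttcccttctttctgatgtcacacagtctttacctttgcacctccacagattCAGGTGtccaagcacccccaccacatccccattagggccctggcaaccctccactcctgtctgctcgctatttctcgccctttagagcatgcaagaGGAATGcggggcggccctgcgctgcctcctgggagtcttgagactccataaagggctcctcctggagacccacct
Tnnc2, chr3:173935340-173935589, minus strand: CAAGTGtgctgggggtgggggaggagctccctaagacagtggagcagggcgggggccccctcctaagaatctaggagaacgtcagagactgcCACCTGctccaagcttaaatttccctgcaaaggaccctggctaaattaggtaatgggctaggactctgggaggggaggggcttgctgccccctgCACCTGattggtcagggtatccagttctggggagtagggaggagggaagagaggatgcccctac
Mybpc1, chr7:24903374-24903623, minus strand: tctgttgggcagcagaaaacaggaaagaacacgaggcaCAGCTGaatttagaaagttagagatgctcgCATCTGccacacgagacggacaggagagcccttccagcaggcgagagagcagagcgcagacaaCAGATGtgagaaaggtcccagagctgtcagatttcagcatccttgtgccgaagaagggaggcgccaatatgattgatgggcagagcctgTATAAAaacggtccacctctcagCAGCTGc

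RefSeq entries of this kind were given for 24 of the 32 genes. They hold 27 promoters, since Tpm3 has 3 and Myl1 has 2 of them. An E-box stood in 21 of the 27 promoters (77.8%), against 65.5% of 33469 promoters of the same length. MCAT elements were found in 5 of the 27 (18.5%, against 12.1%), MEF2 sites in 5 (18.5%, against 2.96%), CArG boxes in 3 (11.1%, against 1.5%) and TATA boxes in 5 (18.5%, against 12.9%). The MEF2 sites were in the promoters of Myl1, Myom3, Myoz1, Myoz2 and Ttn, so that fast, slow and shared genes were among them. The CArG boxes were in those of Acta1, Ldb3 and Myl3. A match describes the letters of the window only.

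Total counts per rat lay between 21152221 and 51305283, and the sarcomere genes took 19.6% to 22.95% of the counts of a rat. The diet of 3 females (205, 224 and 225) differs between their titles and the codes that name their columns, and the codes were used here. For males, the diet headings of a heat map in the study appear the other way round from the deposited codes, as seen for Cyp1a1. The codes were used here too, and with the headings the sign of every diet difference in males would turn and the interaction would change. Cyp1a1, a target gene of the aryl hydrocarbon receptor used here as a check of the diet codes, averaged 0.932 CPM (counts scaled to a common library size) in Male HFHS and 0.0189 CPM in Male Chow rats, and 2.03 CPM in Female HFHS rats against 0 counts in Female Chow rats. Transcripts of 16 hepatocyte markers were found in all groups, and their summed level was 1.56 to 9.97 CPM in Male HFHS, 3.04 to 28.3 CPM in Male Chow, 3.68 to 387 CPM in Female HFHS and 221 to 433 CPM in Female Chow rats. Alb, the leading hepatocyte marker, was above 0 in every rat. Skeletal muscle markers (8 of 10 found) summed to between 118755 and 174998 CPM in every rat.

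Over all 23 rats, the slow isoforms, Myom3 and Actc1 varied most of the sarcomere genes, with their lowest values in 3 chow rats. The slow isoforms are the slow troponins Tnnc1, Tnni1 and Tnnt1, the slow tropomyosin Tpm3, the slow light chains Myl2 and Myl3, the slow-fibre calcineurin-binding protein Myoz2, and Csrp3, a Z-disc LIM protein. Together they took 0.0255% to 1.204% of the counts of a rat, a 47.3-fold range. The 10 fast isoforms (Tnnc2, Tnni2, Tnnt3, Tpm1, Myl1, Mylpf, Mybpc2, Myoz1, Myoz3 and Actn3) took 7.35% to 12.8%, a 1.75-fold range. The SD over the 23 rats of the log2 level was 1.204 to 1.414 for the slow isoforms, against a median of 0.22 over all genes tested, and every one of them was above the 98th percentile of all genes. Fewer slow fibres in a piece of muscle and less of these transcripts per fibre cannot be told apart in bulk RNA.

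Slow troponin I, encoded by Tnni1 on chromosome 13 of rn6 (52624878 to 52637297, plus strand), shows the pattern. Tnni1 was at 402 to 1455 CPM (median 735) in Male HFHS rats, at 46.2 to 1493 CPM (median 738) in Male Chow rats and at 634 to 1152 CPM (median 859) in Female HFHS rats, and at 38.9, 682, 894, 934 and 1288 CPM in the 5 Female Chow rats. Female Chow 205, at 38.9 CPM, and Male Chow 111, at 46.2 CPM, were far below the other rats of their groups, Male Chow 115 was next at 246 CPM, and the 4 groups otherwise overlapped. Myl3 was at 994 to 2466 CPM (median 1273) in Male HFHS rats, at 182 to 3342 CPM (median 1598) in Male Chow rats and at 1370.1 to 1892 CPM (median 1649) in Female HFHS rats, and at 80.3, 1256, 1609, 1735 and 2297 CPM in the 5 Female Chow rats. This essential light chain, which stabilizes the neck of slow myosin, was lowest in the same 3 rats, at 80.3, 182 and 532 CPM in Female Chow 205, Male Chow 111 and Male Chow 115.

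The same 3 rats were below every other rat in all 8 slow isoforms. These rats were picked out as the lowest in these same genes, so this order is a description only. The summed share of the 8 genes in the counts was 0.0255% in Female Chow 205, 0.0401% in Male Chow 111 and 0.159% in Male Chow 115. In the other 20 rats it was 0.305% to 1.204%. Tnnc1, which binds the single regulatory calcium of slow troponin, was at 27.1, 33.3 and 163 CPM in these rats, against 242 to 1259 CPM in the others. Myl2, the slow regulatory light chain, was at 13.1, 18.5 and 121 CPM, against 143 to 660.2 CPM. The margin was narrowest for Csrp3, where Male Chow 115 was at 99.9 CPM and the lowest of the others at 106 CPM. Myom3, a myomesin described in fibres of intermediate speed, was also below every other rat in them (4.69 to 22.4 CPM, against 45.1 to 189 CPM), as was the cardiac actin Actc1 (3.69 to 5.11 CPM, against 9.29 to 174 CPM). Actc1 encodes a protein nearly identical to that of Acta1. How any reads shared by the genes were counted is not stated, so the level of Actc1 is uncertain. The heavy chain Myh7 of slow fibres, which is not in the list, was at 196 to 10808 CPM over all rats, a 55.1-fold range.

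Fast isoforms ran the other way in the 3 rats, by far less. Of the 10, 6 were above every other rat there and 4 overlapped with the rest. The share of all genes tested that stood apart in these 3 rats was not counted, so these counts have no background beside them. Actn3, the alpha-actinin of fast fibres, was at 16930.3, 19056 and 17962 CPM in Female Chow 205, Male Chow 111 and Male Chow 115, against 5466 to 14367 CPM in the other rats. Mybpc2, the fast myosin-binding protein C, was at 10309, 11278 and 9442 CPM, against 3816 to 8540.4 CPM. Tpm1, Tnni2, Tnnt3 and Myoz1 were the other 4 above every other rat. At the opposite end, Male HFHS 101 and Male Chow 112 had the lowest Actn3 levels, at 5466 and 6009.8 CPM, and the highest Tnni1 levels, at 1455 and 1493 CPM. Of the remaining 13 sarcomere genes, 1 (Des, desmin of the intermediate filaments) was above and 2 (Myom3 and Actc1) were below every other rat in the 3, and 10 overlapped. The summed skeletal muscle markers, 8 genes that include the heavy chain entries Myh2 and Myh7, had their highest values in these rats, 168266 CPM in Male Chow 111, 174998 CPM in Male Chow 115 and 170555 CPM in Female Chow 205. Most of each sum was the Myh2 entry, at 92129, 100424 and 98827 CPM in the same order, which was also highest in these rats. The sum is therefore not read as more muscle RNA in them. Female Chow 205 had the lowest sum of 5 fibroblast markers of its group (463 CPM) and of 5 macrophage markers (13.5 CPM), and the Male Chow rats 111 and 115 were within or at the top of the range of Male Chow rats in these lists. Endothelial sums were the lowest of their groups in all 3, by small margins (266.4 and 266.5 CPM, next 267.0 CPM, and 225.9 CPM, next 229.6 CPM). Smooth muscle sums were the highest of their groups in 111 (587 CPM) and 205 (494 CPM) and the lowest in 115 (403 CPM). The part of these markers in the result was not tested.

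**Figure D1:**
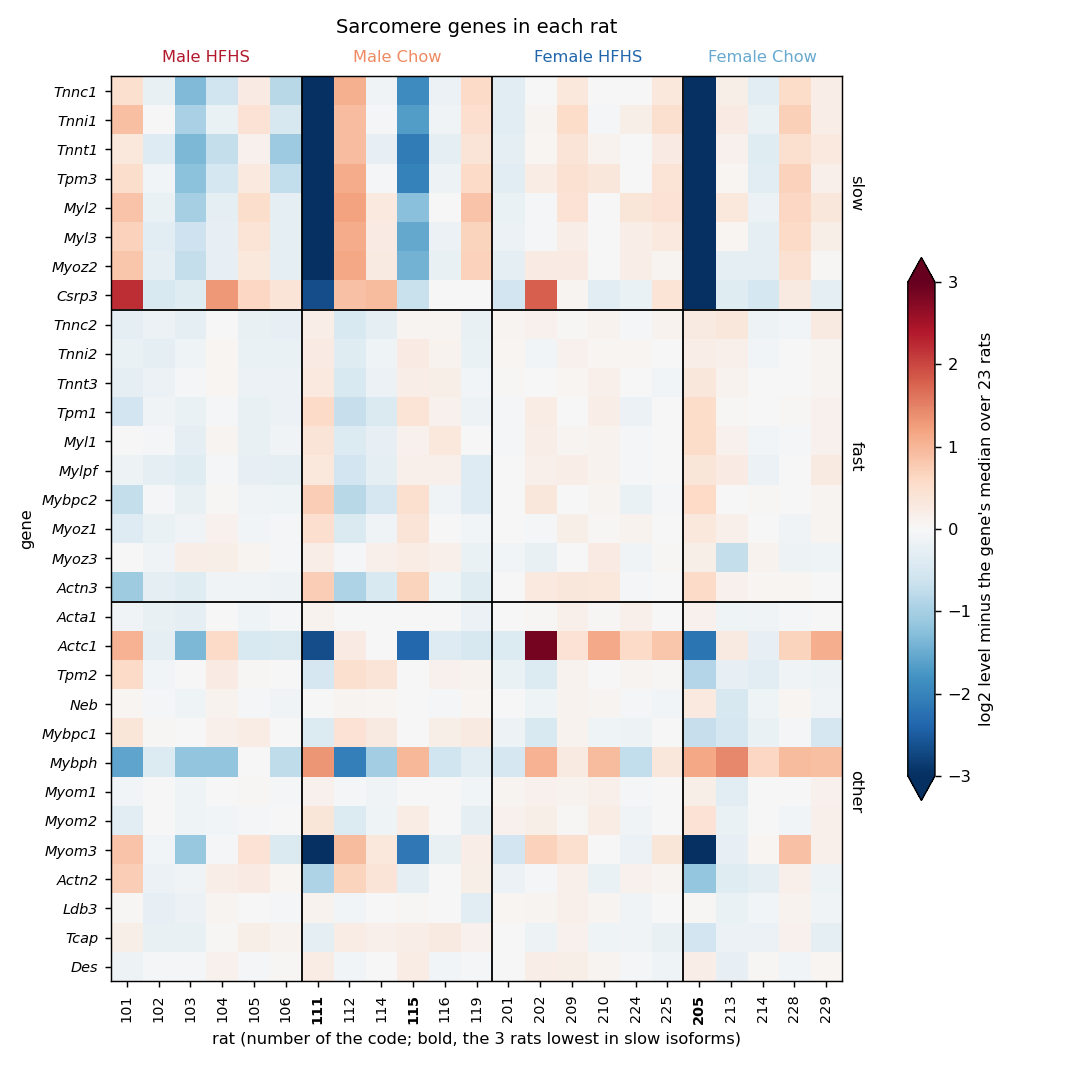
Heat map of the 31 sarcomere genes (rows: slow isoforms, fast isoforms, other members) in 23 rats (columns, by group). Colour gives the log2 level minus the gene's median over the rats, cut at 3 in either direction. Rats 111, 115 and 205 are blue in the slow isoforms, in Myom3 and in Actc1, and pale red in most fast isoforms.

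Several structural members varied less than most genes. Acta1, the skeletal actin of the thin filament, was at 58679 to 80076 CPM over all rats and had an SD of 0.11 on the log2 scale. Myom1 (SD 0.11), Ldb3 (SD 0.12), Des (SD 0.13) and the giant thin filament protein Neb (SD 0.15) were also below the median SD of all genes, 0.22. Outside the slow isoforms, the largest SDs were those of Myom3 (1.39), Actc1 (1.25) and Mybph (1.02). Mybph, a relative of myosin-binding protein C, was at 106 to 1185 CPM over all rats.

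Isoform pairs put each slow isoform except Csrp3, and also Mybpc1 and Actn2, beside a fast counterpart in the same library. These shares are of counts, not corrected for gene length, so they are read between rats only. Tnni1 made up 0.352% to 16.8% of the counts of Tnni1 and Tnni2, the pair of inhibitory troponin subunits. In the 20 rats other than the 3 lowest, the share was 4.42% to 16.8%, with a median of 8.18%. Myl2 made up 0.0754% to 6.76% of the pair of regulatory light chains Myl2 and Mylpf over all rats, and 1.34% to 6.76% in the 20. By group, the median share of Tnni1 was 7.80% in Male HFHS, 7.29% in Male Chow, 8.33% in Female HFHS and 8.16% in Female Chow rats. The log2 ratio of Tnni1 to Tnni2 averaged -3.49 ± 0.70 in Male HFHS, -4.34 ± 2.07 in Male Chow, -3.49 ± 0.32 in Female HFHS and -4.34 ± 2.15 in Female Chow rats (SD, n = 6, 6, 6 and 5). The spread within each chow group, which holds the low rats, was larger than any difference between these means.

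The pairs of Mybpc1 with Mybpc2 and of Actn2 with Actn3 varied less. Mybpc1 made up 25.8% to 67.1% of the counts of its pair over all rats. Its median share was 49.2% in Male HFHS, 54.3% in Male Chow, 45.1% in Female HFHS and 37.5% in Female Chow rats. Every Male HFHS rat was at 47.8% or above and every Female Chow rat at 44.7% or below, 2 groups that differ in sex and diet. Male Chow rats were at 27.7% to 67.1% and Female HFHS rats at 32.9% to 47.7%, so the sexes overlapped. Actn2, the alpha-actinin of all fibres, made up 7.02% to 46.2% of its pair, with medians of 23.4% in Male HFHS, 23.8% in Male Chow, 18.0% in Female HFHS and 16.6% in Female Chow rats.

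The slow isoforms varied together between rats, which was asked by relating each to Tnni1 across rats (8 relations, 7 slow members and Myh7, log2 levels, two-sided permutation tests with Benjamini-Hochberg adjustment). In the 20 rats other than the 3 lowest, 7 of the 8 passed. Tnnc1 had a Pearson r of 0.96 and a Spearman rho of 0.97 (adjusted permutation p = 1e-05 for each, the smallest possible), and Myoz2 had r = 0.87 and rho = 0.77 (adjusted permutation p = 1e-05 and 0.00013). Csrp3 did not pass, with r = 0.40 and rho = 0.43 (adjusted permutation p = 0.0819 and 0.0615). It was high in 1 rat of each HFHS group, at 743 CPM in Male HFHS 101 and 553 CPM in Female HFHS 202. With all 23 rats, r was 0.83 to 0.99 and rho 0.62 to 0.98, and without the 2 rats farthest from the median of Tnni1 (Male Chow 111 and Female Chow 205), r was 0.46 to 0.98, with 8 of 8 past the threshold each time. Within the sexes, without the 3 rats, r was 0.54 to 0.97 in 10 males and 0.33 to 0.97 in 10 females, with 7 of 8 past the threshold in each by r, and by rho 7 of 8 in males and 6 of 8 in females.

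The other 23 members were related to Tnni1 in the same way, a choice made after their values were seen. Over all rats 16 of the 23 passed by r, 6 with a positive r and 10 with a negative one, and 7 passed by rho. Without the 2 farthest rats 3 passed by r and 1 by rho, and without the 3 lowest rats 1 passed by each. That was Myom3 (r = 0.88, rho = 0.80, adjusted permutation p = 0.00023 and 0.00069 over 20 rats). No fast member passed with a negative r once those rats were left out, over fewer rats and a narrower range of Tnni1. Actn3 had r = -0.63 over 23 rats and r = -0.27 over 20, and Mybpc2 had r = -0.74 and r = -0.38 (adjusted permutation p = 0.312 in the 20).

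**Figure D2:**
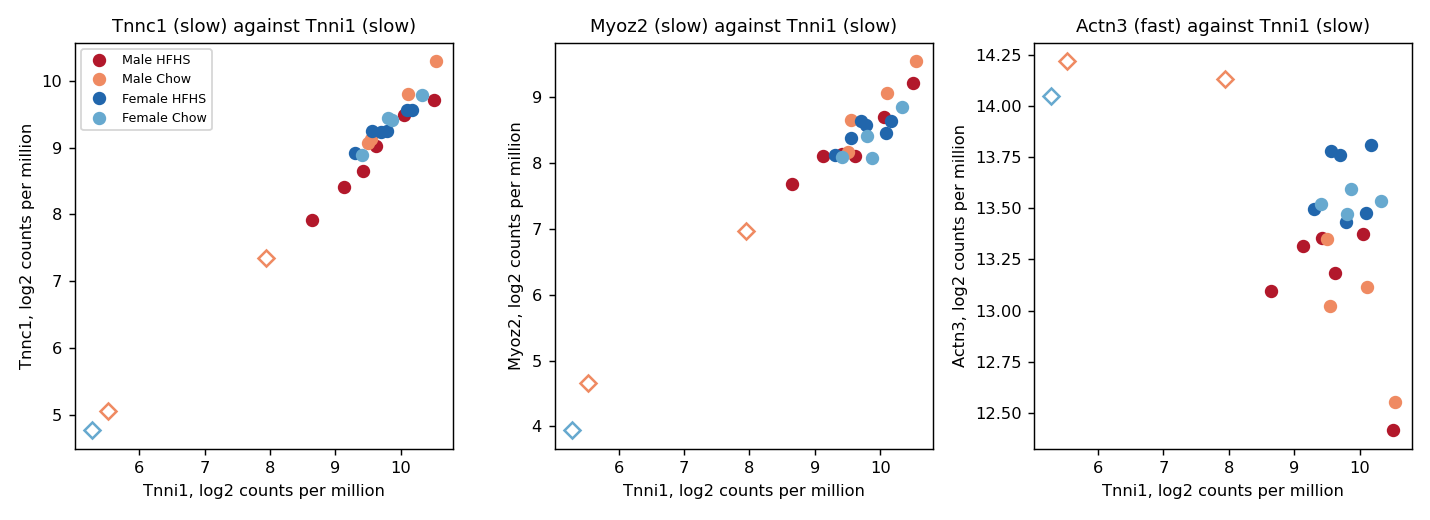
Log2 level of Tnnc1, Myoz2 and Actn3 (y axes) against that of Tnni1 (x axes), 1 point per rat, coloured by group, with the 3 rats lowest in slow isoforms as open diamonds. Both slow genes are higher where Tnni1 is higher also among the filled points, while Actn3 is high in the diamonds and has r = -0.27 among the 20 filled points.

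By sex, 2 of the 31 sarcomere genes passed (6.45%), against 8.97% of all genes tested (1199 of 13365, 508 higher and 691 lower in males). The slow myosin-binding protein Mybpc1 was higher and the fast troponin C gene Tnnc2 lower in males. The test was edgeR's quasi-likelihood test of the mean of both male groups minus the mean of both female groups, adjusted by Benjamini-Hochberg over all genes. At an unadjusted p below 0.05, 7 members passed (22.6%), against 23.5% of all genes.

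Mybpc1 lies on chromosome 7 of rn6 (29086156 to 29171783, minus strand). Mybpc1 was at 5811 to 7471 CPM (median 6178) in Male HFHS rats, at 4328 to 7792 CPM (median 6771) in Male Chow rats and at 4182 to 6187 CPM (median 5247) in Female HFHS rats, and at 3582, 4065, 4096, 5050.4 and 5513 CPM in the 5 Female Chow rats. The gene encodes the myosin-binding protein C of slow fibres, which is also made in fast fibres, and 7 of 12 males were above every female, while 4 of 11 females were below every male. Males averaged 6388 ± 934 CPM and females 4919 ± 820.4 CPM (SD, n = 12 and 11). The log2 difference was 0.39 (SE 0.089, 95% interval 0.21 to 0.58, adjusted p = 0.00632 by edgeR), and with each rat left out in turn it passed every time, with an adjusted p of at most 0.0149. Its lowest male, Male Chow 111 at 4328 CPM, and its lowest female, Female Chow 205 at 3582 CPM, were among the 3 rats lowest in slow isoforms.

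Tnnc2 lies on chromosome 3 of rn6 (161243587 to 161246351, minus strand). Tnnc2 was at 9605 to 11608 CPM (median 9858) in Male HFHS rats, at 8443 to 13430.0 CPM (median 11050.2) in Male Chow rats and at 11277 to 12725 CPM (median 12316) in Female HFHS rats, and at 10383, 10987, 13919, 13980.1 and 14799 CPM in the 5 Female Chow rats. This calcium sensor of fast fibres was below every female in 8 of 12 males and above every male in 3 of 11 females. Males averaged 10547 ± 1478 CPM and females 12465 ± 1351 CPM (SD, n = 12 and 11). The log2 difference was -0.25 (SE 0.074, 95% interval -0.40 to -0.09, adjusted p = 0.0377 by edgeR). The call was lost in 15 of the 23 fits that left out 1 rat, with an adjusted p of up to 0.0753. Those rats were Male HFHS 101, 102, 103, 105 and 106, Male Chow 112, 114 and 119, Female HFHS 201, 202, 210 and 225, and Female Chow 205, 213 and 229.

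Hepatocyte transcripts also differed between the sexes, as given above, and Alb itself was lower in males (log2 -6.00, SE 0.83, adjusted p = 9.56e-05 by edgeR). When the level of hepatocyte markers in each rat entered the fit as a covariate, 0 members and 56 genes in all were called by sex, at a log2 difference of 0.28 for Mybpc1 (adjusted p = 0.571) and -0.18 for Tnnc2 (adjusted p = 0.658). The covariate itself differed strongly by sex, so this fit cannot tell sex and the level of liver transcripts apart. Endothelial markers (7 of 8 found) summed to 301 to 371 CPM in Male HFHS and 266 to 324 CPM in Male Chow, and to 197 to 278 CPM in Female HFHS and 226 to 279 CPM in Female Chow rats, and their part in the result was not tested.

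**Figure D3:**
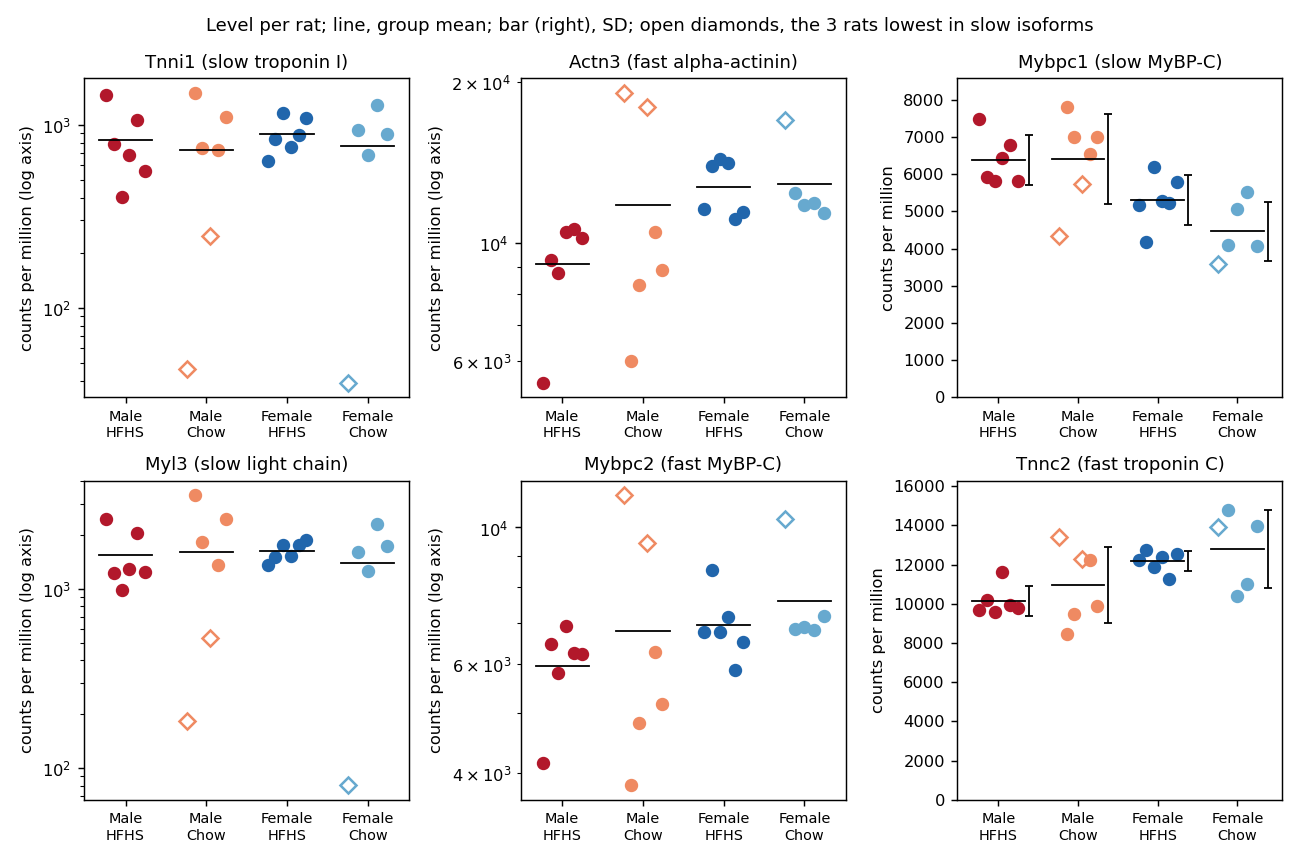
Levels in CPM of Tnni1, Myl3, Actn3, Mybpc2 (log axes), Mybpc1 and Tnnc2 (linear axes from 0), 1 point per rat by group, with a line at the group mean, in the linear panels an SD bar, and open diamonds for the 3 rats lowest in slow isoforms. The diamonds are the lowest points of Tnni1 and Myl3 and the highest of Actn3 and Mybpc2, and 7 of 12 males are above every female in Mybpc1.

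The 8 slow isoforms, which leave out Mybpc1, were not called by sex, with a median log2 difference of -0.03, 4 of 8 positive, and wide errors. Tnni1 had -0.09 (95% interval -1.05 to 0.86, adjusted p = 0.926 by edgeR) and Myl2 0.03 (95% interval -0.92 to 0.99, adjusted p = 0.974), so differences of up to about 1 log2 unit were not detectable at this spread in this fit. Of the 10 fast isoforms, 9 had a negative difference and 1 passed, with a median of -0.16, beside a median of 0.00 over all genes. Actn3 was below every female in 10 of 12 males and above every female in the other 2, Male Chow 111 and 115, at a log2 difference of -0.30 (SE 0.16, adjusted p = 0.262). Mylpf, the fast regulatory light chain, had -0.26 (SE 0.087, adjusted p = 0.0636). Myoz3, the fast-fibre calsarcin, was the only fast isoform with a positive value, 0.14 (adjusted p = 0.319).

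Several other members came close. Mybph was at 146 to 438 CPM (median 225) in Male HFHS rats, at 106 to 1105 CPM (median 321) in Male Chow rats and at 264 to 908 CPM (median 541) in Female HFHS rats, and at 679, 817, 849, 982 and 1185 CPM in the 5 Female Chow rats. Male and Female HFHS values overlapped, and 6 of 12 males were below every female, at a log2 difference of -1.01 (SE 0.33, adjusted p = 0.0621 by edgeR). Tpm2, the tropomyosin shared by fast and slow fibres, had 0.32 (SE 0.11, adjusted p = 0.0632), and the titin cap Tcap 0.21 (SE 0.076, adjusted p = 0.0890). Actc1, whose reads may be shared with Acta1, had -1.05 (SE 0.44, adjusted p = 0.147), while Acta1 had -0.08 (SE 0.049, adjusted p = 0.355).

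More members passed when the variation in slow isoforms was set aside, in fits that were chosen after the data were seen and that use levels of these same genes or of a gene of the same fibres, so they are given as descriptions. Without the 3 rats lowest in slow isoforms, 10 of 31 passed by sex (32.3%, 3 higher and 7 lower in males), against 10.6% of all genes (1422 of 13411). The 3 higher were Mybpc1 (0.44), Tpm2 (0.35) and Tcap (0.21). The 7 lower were the fast isoforms Actn3 (log2 -0.48), Mybpc2 (-0.34), Mylpf (-0.31), Tnnc2 (-0.29), Tpm1 (-0.27) and Tnni2 (-0.18), and Mybph (-1.50). With the level of Myh7 as a covariate, 15 passed (48.4%, 7 higher and 8 lower), against 12.6% of all genes (1682 of 13365). The 5 added were Myoz2 (0.33), Myl3 (0.28), Myl2 (0.21) and Actn2 (0.33), which had positive values, and Myom2 (-0.16). Leaving out Male Chow 111 alone gave 6 members (19.4%, against 1346 of all 13405 genes tested) and Male Chow 115 alone gave 4 (12.9%, against 8.96%), and DESeq2 on all rats gave 5 (16.1%, 2 higher and 3 lower, against 12.1%).

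**Figure D4:**
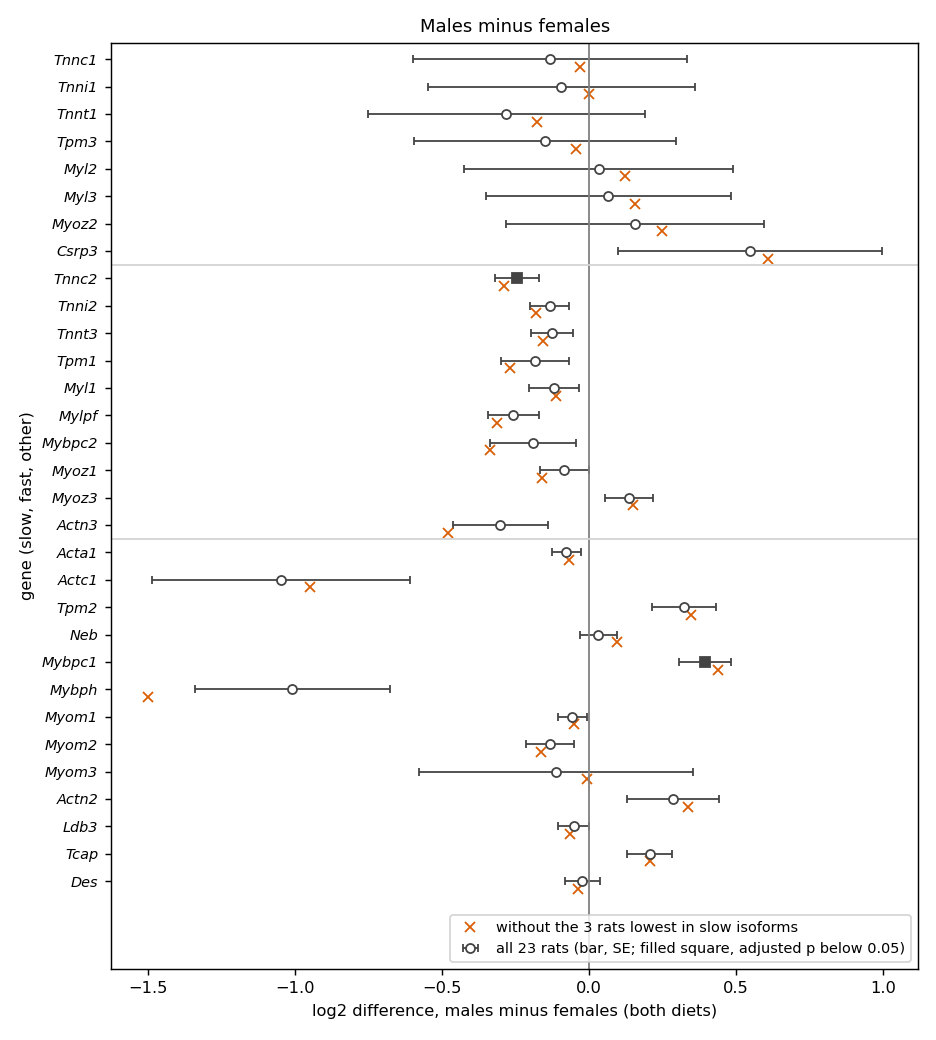
Log2 difference of males minus females for the 31 sarcomere genes (slow, fast, other, from top to bottom), with SE bars, all 23 rats (filled squares, Mybpc1 and Tnnc2, past the threshold) and crosses for the fit without the 3 rats lowest in slow isoforms. Of the 10 fast isoforms, 9 lie left of 0 in both fits.

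By diet, 0 of the 31 sarcomere genes passed in either sex. In males the count was 0 (HFHS minus Chow), against 0.0224% of all genes (3 of 13365), and in females 0, against 0.015% (2 of 13365). The interaction of sex and diet called 0 members and 0% of all genes, and diet averaged over the sexes called 0 members, against 0.0524% of all genes (7 of 13365). At an unadjusted p below 0.05, 0 members passed in males and 0 in females, beside 7.91% and 6.96% of all genes, 1 in the interaction (Acta1, beside 4.88%) and 1 averaged over the sexes (Mybph, beside 9.77%). DESeq2 and limma-voom called 0 members as well in each of these.

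The intervals were wide for the slow isoforms, Myom3, Actc1 and Mybph, and narrower for the other genes. Among the fast isoforms the widest was that of Actn3, at -0.83 to 0.10 in males and -0.50 to 0.47 in females. Tnnc2 had a log2 difference by diet of -0.11 in males (95% interval -0.33 to 0.10) and -0.07 in females (-0.30 to 0.15). Tnni1 had 0.18 in males (-1.13 to 1.50) and 0.22 in females (-1.17 to 1.60). The 8 slow isoforms had a median of -0.09 in males (2 positive) and 0.23 in females (8 positive), and each chow group holds rats that were low in them. Without the 3 lowest rats, the median was -0.56 in males (1 of 8 positive) and -0.07 in females (3 of 8 positive), with 0 called in each, so that 5 of the 8 slow isoforms had the opposite sign in females. Tnnt1, slow troponin T, had the most negative of these values in males (-0.67, adjusted p = 0.627 by edgeR). The 10 fast isoforms had a median of -0.16 in males (0 positive) and -0.08 in females (1 positive) with all rats, and 0.03 (7 positive) and 0.00 (6 positive) without the 3.

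Members with the largest differences by diet had errors to match. Csrp3, studied mostly as a Z-disc protein of heart muscle, had 0.81 in males (SE 0.62) and 0.93 in females (SE 0.66). It was at 116, 123, 208, 243, 394 and 743 CPM in Male HFHS rats, against 25.0, 99.9, 159, 160.3, 292 and 307 CPM in Male Chow rats. Female HFHS rats had 106, 125, 139, 167, 213 and 553 CPM, against 14.5, 110.1, 125, 130.1 and 193 CPM in Female Chow rats, and the diets overlapped in both sexes. Actc1, uncertain as said above, had the most positive value in females, 1.05 (SE 0.64), and 0.63 in males (SE 0.61), at 0.78 in females and 0.19 in males without the 3 lowest rats. Mybph had -0.91 in males (SE 0.46, adjusted p = 0.664 by edgeR) and -0.67 in females (SE 0.48, adjusted p = 0.802), and without the 3 lowest rats its value in males was 0.12 and that in females -0.64. Mybpc1, which was called by sex, had -0.01 in males (SE 0.12) and 0.25 in females (SE 0.13, adjusted p = 0.719). All 31 members had a negative interaction, which sets diet in males minus diet in females, with a median of -0.13, beside a median of -0.01 over all genes. Without the 3 lowest rats 22 of the 31 were negative, and of the fast isoforms 7 of 10 were positive, with a median of 0.03. The smallest unadjusted p was that of Acta1 (-0.21, SE 0.098, adjusted p = 0.983).

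**Figure D5:**
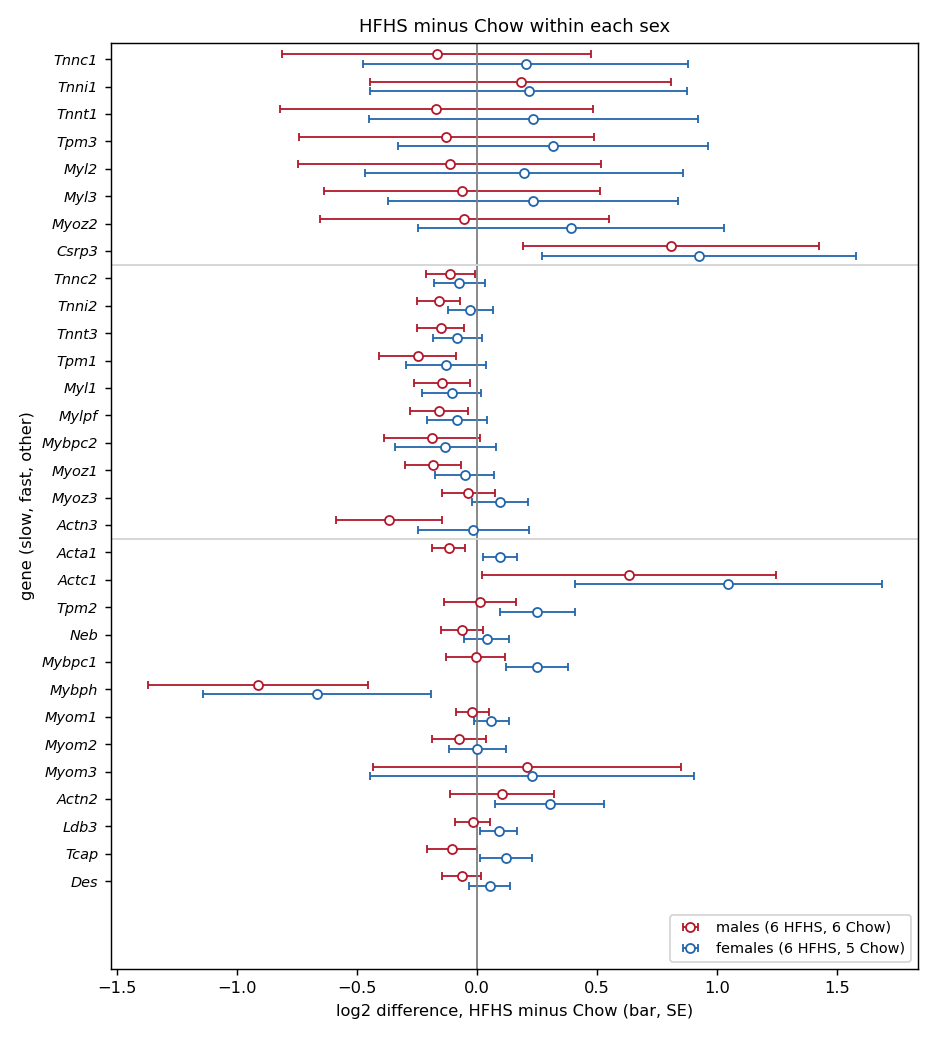
Log2 difference of HFHS minus Chow in males (red) and females (blue) for the 31 sarcomere genes, with SE bars. No gene passed the threshold, and bars are several times longer for the slow isoforms, Myom3, Actc1 and Mybph than for the other genes.

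By place in the sarcomere, the 12 thin filament genes had 1 called by sex (Tnnc2), 10 with a negative difference and a median of -0.13. The 4 light chains had 0 called and a median of -0.04. Of the 6 thick filament and M-band genes, Mybpc1 was called, and the myomesins Myom1, Myom2 and Myom3, which cross-link thick filaments, had -0.06 (SE 0.050), -0.13 (SE 0.082) and -0.11 (SE 0.47). Myom1 averaged 971 ± 42.0 CPM in Male HFHS, 984 ± 61.4 CPM in Male Chow, 1038 ± 60.7 CPM in Female HFHS and 996 ± 128 CPM in Female Chow rats (SD). Of the 9 Z-disc genes, 0 were called and 5 had a positive difference, with a median of 0.14. Since 8.97% of all genes were called by sex, 0 or 1 call in lists of 4 to 12 genes sets no list apart. Actn2 was at 0.29 (SE 0.16), Ldb3, which ties alpha-actinin to signalling proteins, at -0.05 (SE 0.053) and Des at -0.02 (SE 0.059). Neb, which spans the thin filament, had 0.03 (SE 0.063).

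Of 47 further sarcomere and Z-disc genes, 44 were found and 41 tested. By sex, 3 were higher and 3 lower in males (6 of 41, 14.6%, against 8.97% of all genes), with a median log2 difference of -0.05, and 0 passed by diet in either sex, for the interaction or averaged over the sexes. Higher were Fhl3, a LIM protein of muscle (log2 0.34, SE 0.075, adjusted p = 0.00519 by edgeR), Nrap, an anchor of actin at the ends of myofibrils (0.36, SE 0.10, adjusted p = 0.0280), and the formin Fhod3 (0.18, SE 0.054, adjusted p = 0.0339). Fhl3 was at 257 to 349 CPM (median 299) in Male HFHS and 235 to 294 CPM (median 276) in Male Chow rats, and at 190.5 to 246 CPM (median 201) in Female HFHS and 180.1 to 285 CPM (median 231) in Female Chow rats, with overlap between the sexes. Lower were Dmd, dystrophin, which links the cytoskeleton to the membrane (-0.25, SE 0.056, adjusted p = 0.00679), the muscle RING finger gene Trim54 (-0.17, SE 0.045, adjusted p = 0.0176) and Smpx (-0.25, SE 0.078, adjusted p = 0.0482). Myh7 had a log2 difference of -0.18 by sex (SE 0.47, adjusted p = 0.860). The entry named Myh2 spans 204587 bases of chromosome 10 in rn6 (53713938 to 53918524), and the fast heavy chains Myh1 and Myh4 were not matched by name, so that entry was not read as the type IIa heavy chain.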

How the data were processed

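Poly-A RNA of the gastrocnemius of 23 rats was sequenced from directional libraries. The authors used fastp for trimming and STAR 2.7.6a for alignment to rn6, and deposited raw counts per gene over exons of merged transcripts, from SeqMonk 1.48.1. Whether counting used strand, and how reads shared by closely similar genes were treated, is not given in the sources used here. From them, CPM values (counts scaled by the TMM library size) were computed here. A prior count of 2 was added for log2 levels. The 16 entries without a name (6.57e-05% to 0.000294% of counts) were left out. No libraries were identical (253 pairs).

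Tests were edgeR 4.0.16 quasi-likelihood tests in R 4.3.3 (filterByExpr, 4 group means over all rats, robust estimation, adjusted p threshold 0.05 over all genes), tested on simulated data. Groups were those of the column codes. Permutation tests drew 1e+05 resamples (scipy 1.17.1). Intervals are 95% confidence intervals of a log2 difference, computed from its SE, which rests on the spread between rats and on their number. Promoters were read from the RefSeq tables.

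All listed sarcomere genes could be named, with up to 5 further sarcomere genes per direction past the threshold, heavy chains, and Alb and Cyp1a1 as checks. The members and lists were chosen with earlier results of these data known. Alternatives were RLE size factors, 2 other filters, DESeq2 1.42.0, limma-voom (limma 3.58.1), the title diets, a fit without the rats of conflicting diet, hepatocyte markers as a covariate, a block by title number and leaving out each rat. The fits without the 3 rats lowest in slow isoforms and with Myh7 as a covariate, and the relations of the other members, were added after the data were seen.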

Additional observations from a re-analysis of the deposited data

Results flagged for a closer look

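Among 124 combinations of sarcomere gene and group, 8 had a highest or lowest rat set apart from the rest by Dixon's ratio at its 95% critical value. Chance alone would give about 1 in 20, which is 6.2 here. Female Chow 205 was the highest of its group in Tpm1 (27408 CPM, next 20417 CPM), Mybpc2 (10309 CPM, next 7181 CPM) and Actn3 (16930.3 CPM, next 12362 CPM), all fast isoforms, and this rat was also the lowest in the slow isoforms and one whose diet labels conflict. Female HFHS 202 was the highest of its group in Actc1 (174 CPM, next 51.9 CPM) and Csrp3 (553 CPM, next 213 CPM). Male HFHS 104 was the highest in Tnnc2 (11608 CPM, next 10202 CPM), and Male HFHS 101 the lowest in Actn3 (5466 CPM, next 8764 CPM). Male Chow 111 was the lowest of its group in Tcap (205 CPM, next 278 CPM). The slow isoforms of the chow groups, which hold the 3 lowest rats, gave no such flag.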

How the results depend on the processing

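By sex, the count of sarcomere genes called (2 with all rats) was 2 with RLE size factors, with both other filters, with the diets of the titles and with the replicate block. It was 3 with limma-voom, 5 with DESeq2, 1 without the 3 rats with conflicting diet labels, 0 with the hepatocyte covariate (56 genes in all), 10 without the 3 rats lowest in slow isoforms and 15 with Myh7 as a covariate, the last pair chosen after the data were seen. Leaving out each rat gave 1 to 6 members and 935 to 1346 genes. The share of all genes called was 8.97% in the main fit, 12.1% with DESeq2, 10.6% without the 3 lowest rats and 12.6% with Myh7. It is not given here for the RLE, filter, title, block, limma-voom and conflicting-label fits. The member counts of those fits are therefore not read as changes in these genes. No sarcomere gene was called by diet, averaged diet or interaction in any fit, and no call changed sign.

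The few genes called by diet moved with many choices. In males the 3 became 24 with DESeq2, 17 with limma-voom and 0 with the mean count filter, the titles' diets, the hepatocyte covariate and the replicate block (0 to 9 with each rat left out). They became 2 without the 3 lowest rats, both lower in HFHS where the 3 were higher, and stayed 3 with RLE size factors, the 1 CPM filter, Myh7 as a covariate or without the rats of conflicting diet. In females the 2 became 6 with DESeq2, 9 with limma-voom and 1 with RLE size factors, either other filter, the hepatocyte covariate, the replicate block, without the 3 lowest rats and with Myh7 as a covariate (1 to 3 with each rat left out). Averaged over the sexes the 7 became 55 with DESeq2, 11 with limma-voom, 0 with the titles' diets, 1 with the hepatocyte covariate or without the 3 lowest rats, and 3 with the replicate block (7 to 17). The interaction gave 1 with DESeq2 and 5 with the titles' diets (0 to 1). The cause of these moves was not tested.

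Title numbers did not pair the rats. Rats of different groups that share a number had a median correlation of deviations of -0.029 over 32 pairs (3 over 0.1), beside 0.012 over 166 other pairs, and the replicate block changed no call of a sarcomere gene. The lowest count of a sarcomere gene in a rat was 109, for Actc1 in Male Chow 111. The spread between rats limits the slow isoforms, with 95% intervals for Tnni1 of -1.05 to 0.86 by sex, and by diet of -1.13 to 1.50 in males and -1.17 to 1.60 in females.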
